A study of Mus musculus with 11 samples.

Results

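The genes described here are those whose symbols name cytosolic ribosomal proteins, the proteins that together with ribosomal RNA form the small (40S) and large (60S) subunits of the ribosome. They were taken as the genes with a symbol that starts with Rpl or Rps and a digit, plus Rplp0, Rplp1, Rplp2 and Rpsa, without the S6 kinases and pseudogenes, with the brightest probe set, averaged over the 11 arrays, standing for each gene. This gave 50 of the 18194 genes measured. They were 21 proteins of the 40S subunit, 22 proteins of the 60S subunit, 6 paralogs encoded by separate genes (Rpl22l1, Rpl39l, Rpl3l, Rpl7l1, Rps27l and Rps4l), and Rps19bp1, which is not a ribosomal protein but a small protein that binds Rps19. Of the 77 listed standard ribosomal protein genes, 34 were not among them, 27 of these because their probe sets carry several gene symbols, so the 43 core genes are a part of the ribosome and not all of it.

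RNA came from splenic T cells of female mice 3 to 4 months old. C57BL6 wild-type animals were set beside C57BL6 crbn-/- animals, which lack cereblon, the substrate receptor of a ubiquitin ligase, and are called knockout here. Cells of each genotype were either naive or activated for 12 hours with plate-bound anti-CD3 at 5 µg/ml and soluble anti-CD28 at 1 µg/ml. Affymetrix arrays were run with 1 RNA sample on each: 3 of naive and 2 of activated wild-type cells, and 3 of naive and 3 of activated knockout cells.

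Ribosomal protein mRNAs are among the most abundant in any cell, and most of them begin with a C followed by a run of pyrimidines, the 5′ terminal oligopyrimidine (TOP) tract. The tract lets the growth kinase mTORC1, acting through the binding protein Larp1, hold these mRNAs back from ribosomes in resting cells and release them on stimulation, so that their use can change while their amount does not. T cells enlarge and make new ribosomes before their first division, and cereblon has been studied for its effect on T cell activation.

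To show what the members share at their start sites, the 50 bases around the annotated start of transcription (30 before it and 20 from it on) are given for genes whose reading changed on activation in at least 1 genotype (Rps25, Rpl14, Rps27, Rps6), for genes whose reading did not pass the test (Rpl7a, Rpl35, Rplp2) and for 3 paralogs (Rps27l, Rpl7l1, Rpl22l1). Sequences are from RefSeq on GRCm38.p6, 5′ to 3′ on the strand of the gene, and capitals mark the longest unbroken run of C and T in the stretch.
Rps25 (chr9:44407684-44407733, + strand): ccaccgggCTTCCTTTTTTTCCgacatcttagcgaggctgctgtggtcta
Rpl14 (chr9:120571487-120571536, + strand): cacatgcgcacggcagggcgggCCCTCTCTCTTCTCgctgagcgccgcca
Rps27 (chr3:90213629-90213678, - strand): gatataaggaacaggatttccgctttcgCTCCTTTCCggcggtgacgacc
Rps6 (chr4:86857348-86857397, - strand): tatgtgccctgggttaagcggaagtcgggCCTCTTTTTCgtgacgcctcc
Rpl7a (chr2:26910777-26910826, + strand): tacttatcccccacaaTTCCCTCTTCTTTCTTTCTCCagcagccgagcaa
Rpl35 (chr2:39005112-39005161, - strand): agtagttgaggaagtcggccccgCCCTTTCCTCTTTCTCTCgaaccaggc
Rplp2 (chr7:141447621-141447670, + strand): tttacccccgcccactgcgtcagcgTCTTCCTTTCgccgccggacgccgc
Rps27l (chr9:66946056-66946105, + strand): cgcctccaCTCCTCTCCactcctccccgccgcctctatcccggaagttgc
Rpl7l1 (chr17:46782637-46782686, - strand): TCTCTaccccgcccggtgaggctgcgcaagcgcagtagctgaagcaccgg
Rpl22l1 (chr3:28805478-28805527, + strand): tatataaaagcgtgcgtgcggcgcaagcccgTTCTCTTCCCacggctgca
The run is 14 bases long in both Rps25 and Rpl14, 9 in Rps27, 10 in Rps6, 21 in Rpl7a, 18 in Rpl35 and 10 in Rplp2. The Rps25 run ends before the annotated start. These examples do not stand for all core genes. The longest run in the stretch was 4 bases in Rpl41 and Rps4x. It was 5 in Rpl22 (at both annotated starts), Rpl27, Rpl37a, Rps16, Rps28, Rps3a1 and Rpsa. Among the paralogs the longest run was 5 bases in Rpl7l1, 9 in Rps27l (at the first of its 2 annotated starts) and 10 in Rpl22l1.

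Of the 50 genes, 44 had an entry among the promoter sequences; Rpl7, Rpl8, Rps14, Rps20, Rps29 and Rps4l are named only. A run of at least 6 C or T in the 50-base stretch was present in 30 of the 44 entries of core genes (68.2%) and in 14700 of all 32851 promoter entries (44.7%). A run of at least 8 was present in 20 entries of core genes (45.5%) and in 20.2% of all entries. On the opposite strand a run of at least 6 was present in 38.6% of core entries and 47.1% of all entries. The motif CCGGAAG, the letters bound by ETS family factors such as GABP, was searched on both strands of the 300-base promoter sequences and was found in 43.2% of core entries against 8.86% of all entries. Of the entries of mitochondrial ribosomal protein genes 34.7% held it, 54.7% held a run of at least 6 and 21.3% a run of at least 8. TATAAA, searched the same way, was found in 11.4% of core entries and 13.6% of all. These are descriptions of letters in fixed windows, and annotated starts can lie some bases away from the starts used in T cells.

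Array medians lay between 5.84 and 5.89 log2 units. Crbn read 10.06, 10.21 and 10.09 in wild-type naive cells and 8.97, 9.07 and 8.91 in knockout naive cells, a 2.19-fold lower level (difference -1.13 ± 0.085 SE, adjusted p = 8.7e-05, limma). It read 9.71 and 9.47 in wild-type activated and 8.70, 8.77 and 8.58 in knockout activated cells, and no array went against its genotype label. The 6 measured T cell markers had a mean level of 11.2 to 12.2 on every array. Markers of other cells were also present in places: the 7 erythroid markers averaged 7.43 to 8.84 in naive and 6.39 to 6.50 in activated wild-type arrays, and 6.36 to 7.65 in naive and 5.92 to 6.59 in activated knockout arrays, with wild-type naive replicate 1 the highest. The 8 B cell markers averaged 8.34 to 8.55, 7.34 to 7.85, 8.49 to 9.31 and 7.81 to 8.25 in the same order, with knockout naive replicate 1 the highest.

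On activation of wild-type T cells, the probe sets that stand for most core ribosomal protein genes differed little in their readings. These probe sets read high on the array's scale, 34 of the 43 at 13.20 or above, though 0 of the 50 genes averaged within 0.5 log2 units of the mean array maximum. Whether such high values are compressed was not tested, so a small difference in reading is not a measure of a small difference in mRNA. The median difference over the 43 core genes was -0.016 log2 units, 17 lay above zero and 26 below. An adjusted p under 0.05 was reached by 3 of them, while 41.1% of all 18194 genes passed in this comparison (20.2% higher, 20.9% lower). Over the 50 genes, 6 rose (Rps19bp1, Rpl7l1, Rps27l, Rps25, Rpl14 and Rps4l) and 2 fell (Rps27 and Rpl22l1), with a median of -0.0077 against a median of 0.0565 over all genes. In knockout cells 9 of the 50 rose and 2 fell, with a median of -0.0040 against -0.0288 over all genes, where 43.2% of all genes passed (20.7% higher, 22.4% lower). The tests are limma's, with p-values adjusted by the Benjamini-Hochberg method over all genes. The values are relative within an array, so the amount of ribosomal protein mRNA per cell was not measured, and in RNA from many cells, fewer cells of a type and less RNA per cell cannot be told apart.

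**Figure D1:**
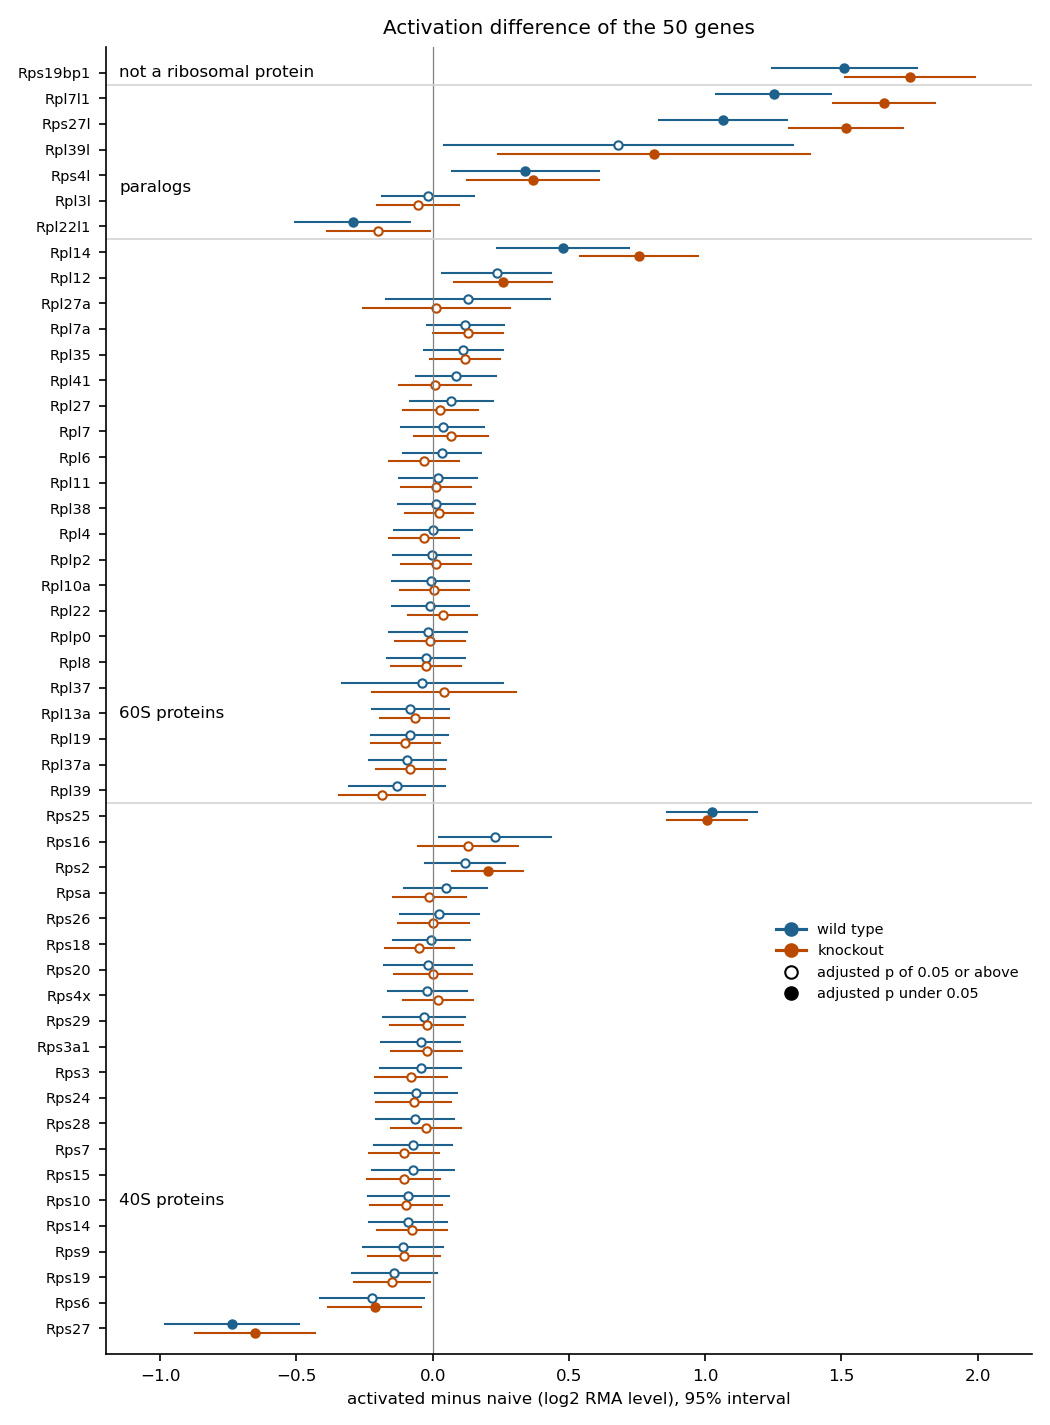
Activated minus naive difference (log2 RMA level, x axis) of each of the 50 genes, in wild-type (blue) and knockout (orange) cells, with its 95% interval; filled points have an adjusted p under 0.05 and open points do not. Most 40S and 60S proteins sit near 0 in both genotypes, Rps25 and Rpl14 lie above it, Rps27 lies below it, and Rpl7l1, Rps27l and Rps19bp1 lie farthest to the right.

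The probe sets of the core genes fell into 2 classes of brightness, with no core gene between a mean of 11.27 (Rpl37) and 13.20 (Rps9). The 34 bright ones, at 13.20 to 13.99, hold proteins of both subunits. Brightness depends on the probes as well as on the mRNA, so it does not rank these genes by abundance, and the division was made after the values were seen. Among the bright 34, 0 passed in wild-type cells and 1 in knockout cells (Rps2). The largest absolute difference was 0.14 in wild-type cells, a 1.10-fold difference, and 0.20 in knockout cells, 1.15-fold. All 95% intervals lay between -0.30 and 0.26 in wild-type and between -0.29 and 0.33 in knockout cells. Their median absolute difference was 0.046 in wild-type and 0.034 in knockout cells, and the median spread between arrays of a group was 0.025, against 0.109 over all genes. As a reference at the same brightness, 18 genes that are not members lay between 13.21 and 13.96: 7 of them (38.9%) passed in wild-type and 11 (61.1%) in knockout activation, with median absolute differences of 0.15 and 0.21. This reference is not free of ribosomal proteins: it holds Fau, which encodes the ribosomal protein eS30 and passed in knockout activation. Other probe sets of core genes, with a mean level up to 12, had a median difference of 0.19 when wild-type and 0.22 when knockout arrays were compared, and those above 12 had -0.044 and -0.045. The intervals above therefore bound the readings of the bright probe sets, not the change in mRNA.

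The P stalk, the flexible arm of the 60S subunit that recruits translation factors, is represented by Rplp0, its base, and Rplp2. Rplp0 read 13.76, 13.75 and 13.76 in wild-type naive and 13.77 and 13.71 in wild-type activated cells. In knockout cells it read 13.75, 13.75 and 13.72 when naive and 13.74, 13.74 and 13.71 when activated. Rplp0 ranges overlapped in both genotypes, and its differences were -0.016 ± 0.066 SE in wild-type and -0.0098 ± 0.059 in knockout cells. Rplp2 differed by -0.0022 ± 0.067 and 0.011 ± 0.060. Rpl11, which assembles with Rpl5 and 5S rRNA and, when free, binds the p53 regulator Mdm2, differed by 0.019 ± 0.066 and 0.012 ± 0.059. A list of genes known from Diamond-Blackfan anaemia, an inherited red cell failure caused by ribosomal protein mutations, had 6 measured genes. Of these 0 passed in either genotype, where 41.1% of all genes passed in wild-type and 43.2% in knockout cells. The list is not a complete one for the disease, and it does not hold Rps27, which fell in both genotypes (below).

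Some bright genes had naive and activated arrays that did not overlap while their small differences did not pass the test. Rps19, the gene most often mutated in Diamond-Blackfan anaemia, read 13.51, 13.53 and 13.51 in wild-type naive and 13.34 and 13.41 in wild-type activated cells. In knockout cells it read 13.52, 13.49 and 13.50 when naive and 13.27, 13.43 and 13.36 when activated. Naive and activated arrays did not overlap in either genotype, yet the differences of -0.14 (adjusted p = 0.140) and -0.15 (adjusted p = 0.0843) did not pass the limma test. Rps19 was singled out after its values were seen. Among the 43 core genes, naive and activated wild-type arrays did not overlap in 8 genes in the higher and 14 in the lower direction, against 31.1% and 25.8% of all genes. The counts were 9 and 16 in knockout cells, against 24.5% and 28.0% of all genes. Of the 34 bright genes, 4 were higher and 11 lower in this sense in wild-type cells, and 6 and 13 in knockout cells. The limma test moderates each gene's variance towards that of all genes, which is larger than that of these probe sets; without moderation 8 of the 50 genes were higher and 8 lower in wild-type cells, and 9 were higher and 13 lower in knockout cells. The core genes among these were 5 higher and 8 lower, and 6 higher and 13 lower. Over all 18194 genes the same fit gave 3304 higher and 3572 lower in wild-type and 3592 higher and 3884 lower in knockout cells.

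Rps2, a 40S protein near the path of the mRNA, was the 1 bright gene to pass. It read 13.53, 13.53 and 13.50 in knockout naive and 13.76, 13.69 and 13.72 in knockout activated cells, and the groups did not overlap. Its difference was 0.20 ± 0.060 SE, adjusted p = 0.0141 by limma, and 0.12 ± 0.067 in wild-type cells, adjusted p = 0.186. The wild-type difference passed with a variance trend, without moderation and with centring on the median, so a rise in knockout cells alone is not shown. Without knockout activated replicate 1 the knockout difference was 0.18 with an adjusted p of 0.0568, and with a replicate block within genotype the adjusted p was 0.0627.

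By subunit, 16 of the 21 proteins of the 40S subunit and 10 of the 22 proteins of the 60S subunit were below zero in wild-type activation, and 15 and 8 were in knockout activation. These signs follow the scaling: with each array centred on its median, 6 and 4 were below zero in wild-type cells and 7 and 2 in knockout cells. Medians were -0.045 for 40S and 0.0072 for 60S in wild-type cells, and -0.050 and 0.012 in knockout cells.

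Among the probe sets that stand for the standard ribosomal proteins, that of Rps25 rose most. Rps25 is a 40S protein used in initiation at some internal ribosome entry sites. Rps25, Rpl14, Rpl12 and Rps27 are each read by 1 probe set with 1 symbol, of mean level 10.76, 8.84, 8.84 and 8.6. Their rises and falls are those of that dim probe set. Whether a bright probe set would repeat them was not tested. In some other core genes, given below, a dim probe set rose while the bright one differed little. Rps25 read 10.23, 10.36 and 10.23 in wild-type naive and 11.25 and 11.35 in wild-type activated cells. Knockout cells read 10.27, 10.32 and 10.38 when naive and 11.34, 11.31 and 11.35 when activated. Every activated array lay above every naive array. The rise was 2.04-fold in wild-type cells (1.03 ± 0.076 SE, adjusted p = 2.66e-07, limma) and 2.01-fold in knockout cells (1.01 ± 0.068, adjusted p = 5.41e-08).

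Rpl14, a 60S protein, was the other standard protein to rise in both genotypes by the probe set that stands for it. It read 8.78, 8.52 and 8.45 in wild-type naive and 8.91 and 9.21 in wild-type activated cells. Knockout cells read 8.51, 8.56 and 8.47 when naive and 9.18, 9.36 and 9.27 when activated. No naive array reached an activated one of the same genotype. The rise was 1.39-fold in wild-type cells (0.48 ± 0.11 SE, adjusted p = 0.00351, limma) and 1.69-fold in knockout cells (0.76 ± 0.10, adjusted p = 2.71e-05). Without wild-type activated replicate 2 the wild-type difference was 0.33 with an adjusted p of 0.0607.

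Rpl12, a 60S protein at the base of the P stalk, rose in knockout cells from 8.78, 8.73 and 8.61 to 8.97, 8.87 and 9.05. The groups did not overlap, and the difference was 0.26 ± 0.083 SE (adjusted p = 0.0224, limma). In wild-type cells Rpl12 read 8.77, 8.84 and 8.66 when naive and 8.89 and 9.09 when activated, a difference of 0.23 ± 0.093 with an adjusted p of 0.0607. Leaving out knockout naive replicate 3, knockout activated replicate 1 or knockout activated replicate 3 took the knockout p above the threshold, at 0.092, 0.059 and 0.0934. The wild-type difference of Rpl12 passed after quantile normalization, with centring on the median and with the mean of all probe sets. A rise of Rpl12 in knockout cells alone is therefore not shown.

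Rps27, a zinc finger protein of the 40S subunit, fell most. It read 8.85, 8.91 and 8.95 in wild-type naive and 8.01 and 8.32 in wild-type activated cells. Knockout cells read 8.90, 8.93 and 8.90 when naive and 8.04, 8.41 and 8.32 when activated. The naive arrays of both genotypes lay close together and above every activated array. Its level was 1.67-fold lower after activation in wild-type cells (-0.74 ± 0.11 SE, adjusted p = 0.000148, limma) and 1.57-fold lower in knockout cells (-0.65 ± 0.10, adjusted p = 0.00012).

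Rps6, the 40S protein that S6 kinase phosphorylates downstream of mTORC1, read 10.17, 10.13 and 10.18 in wild-type naive and 9.78 and 10.10 in wild-type activated cells. Knockout cells read 10.24, 10.28 and 10.24 when naive and 10.01, 10.06 and 10.05 when activated. The groups did not overlap in either genotype. Rps6 fell by 0.21 in knockout cells, which passed narrowly (SE 0.078, adjusted p = 0.0425, limma), and differed by -0.22 ± 0.087 in wild-type cells, which did not (adjusted p = 0.0597). Leaving out any 1 of the 3 wild-type naive, 3 knockout naive or 3 knockout activated arrays took the knockout p above the threshold, at 0.0502 to 0.113, and averaging all probe sets of the gene gave a difference of -0.0099. The knockout call was also lost with centring on the median (adjusted p = 0.228) and with a replicate block within genotype (0.0875). The wild-type difference in turn passed in 4 other settings: among genes above the median level (adjusted p = 0.0331), with a variance trend (0.039), after quantile normalization (0.0322) and with bright-gene centring (0.0271). It was -0.38 without wild-type activated replicate 2 (adjusted p = 0.00237) and -0.066 without wild-type activated replicate 1 (adjusted p = 0.572).

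Among the other dim core genes, Rpl39 differed by -0.19 in knockout cells (adjusted p = 0.0581, limma) and Rps16 by 0.23 in wild-type cells (adjusted p = 0.0728). The Rps16 probe set read 4.08 to 4.54 on all arrays, below the lower quartile of every array (4.57 to 4.68), and it is not read further.

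**Figure D2:**
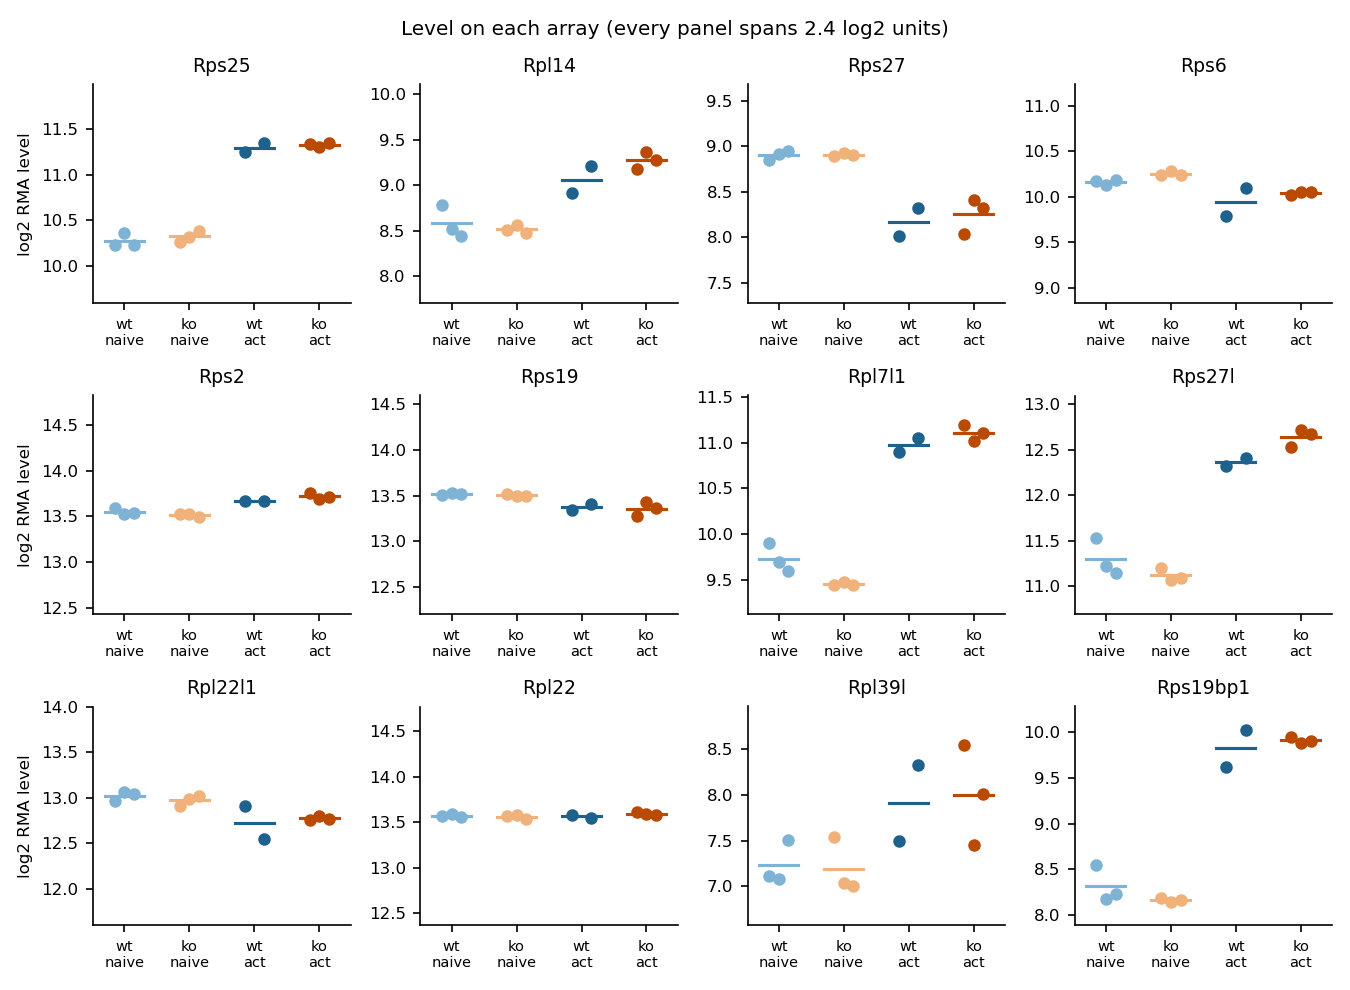
Log2 RMA level (y axis, 2.4 units in every panel) on each array for 12 genes, by group, with points for arrays and lines for group means (wt, wild type; ko, knockout; act, activated). Rps25, Rpl14, Rpl7l1, Rps27l and Rps19bp1 are higher and Rps27 lower on every activated array than on every naive array of the same genotype, while Rpl22 stays at 13.53 to 13.61.

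Among the paralogs, Rpl7l1 and Rps27l rose more than 2-fold in both genotypes. Of the 6, 3 rose and 1 fell in wild-type cells, and 4 rose and 0 fell in knockout cells. Over all genes 20.2% rose and 20.9% fell in wild-type cells, and 20.7% rose and 22.4% fell in knockout cells. The calls of Rps4l, Rpl39l and Rpl22l1 were lost in some settings, given below for each gene. The median differences of the 6 paralogs were 0.51 and 0.59.

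Rpl7l1 encodes a nucleolar relative of Rpl7. It read 9.90, 9.69 and 9.59 in wild-type naive and 10.90 and 11.06 in wild-type activated cells. Knockout cells read 9.44, 9.47 and 9.44 when naive and 11.20, 11.02 and 11.11 when activated. The separation was complete in both genotypes. The rise was 2.38-fold in wild-type cells (1.25 ± 0.097 SE, adjusted p = 3.93e-07, limma) and 3.15-fold in knockout cells (1.66 ± 0.087, adjusted p = 6.29e-09). Its other 2 probe sets rose too, by 1.54 and 1.10 in wild-type and by 1.86 and 1.53 in knockout cells. Rpl7 itself, the standard protein, read 13.40 to 13.54 on all arrays.

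Rps27l, a close relative of Rps27 and a known p53 target, moved opposite to the dim probe set that stands for Rps27. Rps27l read 11.53, 11.22 and 11.15 in wild-type naive and 12.32 and 12.41 in wild-type activated cells. Knockout cells read 11.20, 11.08 and 11.09 when naive and 12.53, 12.72 and 12.67 when activated. Activated arrays again lay above all naive ones. Rps27l rose 2.09-fold in wild-type cells (1.06 ± 0.11 SE, adjusted p = 4.03e-06, limma) and 2.86-fold in knockout cells (1.52 ± 0.097, adjusted p = 3.53e-08), and its other 2 probe sets rose by 1.21 and 0.94 in wild-type and by 1.57 and 1.21 in knockout cells. Cdkn1a, another p53 target and a listed gene of ribosomal protein surveillance, rose by 1.17 and 1.25, and Mdm2, a further p53 target, fell by 0.51 and 0.35.

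Rpl22 and Rpl22l1 are paralogs, and Rpl22 is known to be needed for the development of alpha beta T cells. Rpl22 read 13.57, 13.59 and 13.56 in wild-type naive and 13.58 and 13.55 in wild-type activated cells, a difference of -0.0086 ± 0.065 SE, and differed by 0.036 ± 0.058 in knockout cells. A second Rpl22 probe set, of mean level 9.09, was lower by 0.34 in knockout activation (adjusted p = 0.0241 over all probe sets, limma). Rpl22l1 read 12.97, 13.06 and 13.04 in wild-type naive and 12.91 and 12.55 in wild-type activated cells. In knockout cells it read 12.91, 12.99 and 13.03 when naive and 12.76, 12.80 and 12.77 when activated. The groups did not overlap in either genotype. Rpl22l1 fell by 0.29 in wild-type cells (SE 0.097, adjusted p = 0.0281, limma) and differed by -0.20 ± 0.087 in knockout cells (adjusted p = 0.0859). The wild-type fall rests on wild-type activated replicate 2, without which the difference was -0.11 with an adjusted p of 0.334; without wild-type naive replicate 2 or 3 the adjusted p was 0.0789 or 0.061. The call was also lost without moderation (0.0515), with only the arrays compared (0.0932), with centring on the median (0.0874) and with a replicate block by number (0.0542) or within genotype (0.0966). The knockout difference passed in 5 other settings, with adjusted p from 0.0234 to 0.0499, and without either wild-type activated array (0.0162), so a fall in wild-type cells alone is not shown.

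Rpl39l, a paralog best known from testis, varied most between arrays. It read 7.11, 7.08 and 7.50 in wild-type naive and 7.50 and 8.33 in wild-type activated cells. Knockout cells read 7.54, 7.03 and 7.00 when naive and 8.54, 7.45 and 8.01 when activated. Naive and activated arrays overlapped in both genotypes. The difference of 0.81 ± 0.26 SE in knockout cells passed (adjusted p = 0.0235, limma) and that of 0.68 ± 0.29 in wild-type cells did not (adjusted p = 0.0844). The knockout call was lost without knockout naive replicate 2, knockout naive replicate 3, knockout activated replicate 1 or knockout activated replicate 3 (adjusted p = 0.0766, 0.0789, 0.117 and 0.0569). The knockout call was also lost with a variance trend (0.0786) and without moderation (0.107). The wild-type difference passed without knockout activated replicate 1 (adjusted p = 0.0486) or knockout activated replicate 2 (0.0484). It also passed with only the arrays compared (0.0477), with centring on the median (0.0467) and with a replicate block within genotype (0.0098). Without single arrays it ran from 0.27 to 1.10, the highest without wild-type activated replicate 1.

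Rps4l, a mouse paralog of Rps4x, read 6.33, 6.63 and 6.36 in wild-type naive and 6.67 and 6.88 in wild-type activated cells. Knockout cells read 6.37, 6.02 and 6.09 when naive and 6.51, 6.64 and 6.42 when activated. It rose by 0.34 ± 0.12 SE in wild-type cells (adjusted p = 0.0441, limma) and by 0.37 ± 0.11 in knockout cells (adjusted p = 0.0161). The wild-type call was lost in 6 of the 11 fits that left out 1 array each, with adjusted p between 0.0501 (without knockout activated replicate 3) and 0.274 (without wild-type activated replicate 2). The other 4 of these were without wild-type naive replicate 1 (0.126) or 3 (0.109), knockout naive replicate 3 (0.0504) and knockout activated replicate 1 (0.0581). The knockout call was lost in 3 of those fits, without knockout naive replicate 2 or 3 or knockout activated replicate 2 (0.0753, 0.0562 and 0.0715). The wild-type call was also lost without moderation (0.106), with only the arrays compared (0.0604), with array weights (0.364) and with a replicate block by number (0.0798) or within genotype (0.0851), and the knockout call without moderation (0.0561). Rpl3l, the paralog of striated muscle, read 4.39 to 4.61 on all arrays, within or below the range of the array lower quartiles, and differed by -0.016 ± 0.078 and -0.054 ± 0.070.

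Rps19bp1, also called AROS, showed the largest rise of all 50 genes in both genotypes. It read 8.54, 8.17 and 8.23 in wild-type naive and 9.62 and 10.03 in wild-type activated cells. Knockout cells read 8.18, 8.14 and 8.16 when naive and 9.95, 9.89 and 9.90 when activated. Rps19bp1 rose 2.85-fold (1.51 ± 0.12 SE, adjusted p = 5.81e-07, limma) and 3.37-fold (1.75 ± 0.11, adjusted p = 2.91e-08).

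Many core genes are read by further probe sets, and these did not all repeat the picture of the brightest one. The 52 further probe sets of 22 core genes gave 8 higher and 0 lower in wild-type activation, and 8 higher and 2 lower in knockout activation. Over all 34958 probe sets with 1 symbol, 18.9% were higher and 18.9% lower in wild-type and 21.5% higher and 20.2% lower in knockout cells. All of the higher ones were among the 21 with a mean level up to 12; of the 31 above 12, 0 were higher in either genotype and 1 was lower, in knockout cells (Rpl13a, -0.16, adjusted p = 0.0496, limma). The genes with a higher probe set were Rpl35, Rps10, Rps18, Rps24, Rps9 and Rpsa in wild-type cells, and these and Rpl37a in knockout cells. All were chosen after their values were seen. The higher Rpsa probe set read only 4.16 to 4.41 on naive and 4.51 to 4.87 on activated arrays. That of Rpl35 read 4.57 to 5.29 on all arrays. Both lay near the array lower quartiles (4.57 to 4.68), and their rises are not read further.

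In Rps24 the probe sets differed widely. Its bright probe set read 13.85, 13.87 and 13.89 in wild-type naive and 13.87 and 13.75 in wild-type activated cells. A dimmer probe set of the gene read 7.67, 7.79 and 7.61 and then 8.55 and 8.59, and in knockout cells 7.44, 7.31 and 7.25 and then 8.72, 8.79 and 8.77. The dimmer probe set separated the states on every array and rose by 0.88 ± 0.085 SE in wild-type (adjusted p = 2.36e-06 over all probe sets, limma) and 1.43 ± 0.076 in knockout cells (adjusted p = 6.91e-09). A still dimmer Rps24 probe set, of mean level 6.27, did not follow it: it differed by 0.30 ± 0.12 SE in wild-type cells (adjusted p = 0.0601) and by -0.25 ± 0.10 in knockout cells (adjusted p = 0.0712). Its knockout arrays read 6.26, 6.35 and 6.65 when naive and 6.13, 6.15 and 6.23 when activated, with no overlap. A dim probe set of Rps10 rose by 0.55 and 1.03 while the bright one differed by -0.089 and -0.097. In Rps18, 3 dim probe sets rose by 0.31 to 0.45 in wild-type cells and 2 of them by 0.49 and 0.87 in knockout cells, while the bright one differed by -0.0048 and -0.050. Which transcripts these dim probe sets detect was not tested.

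**Figure D3:**
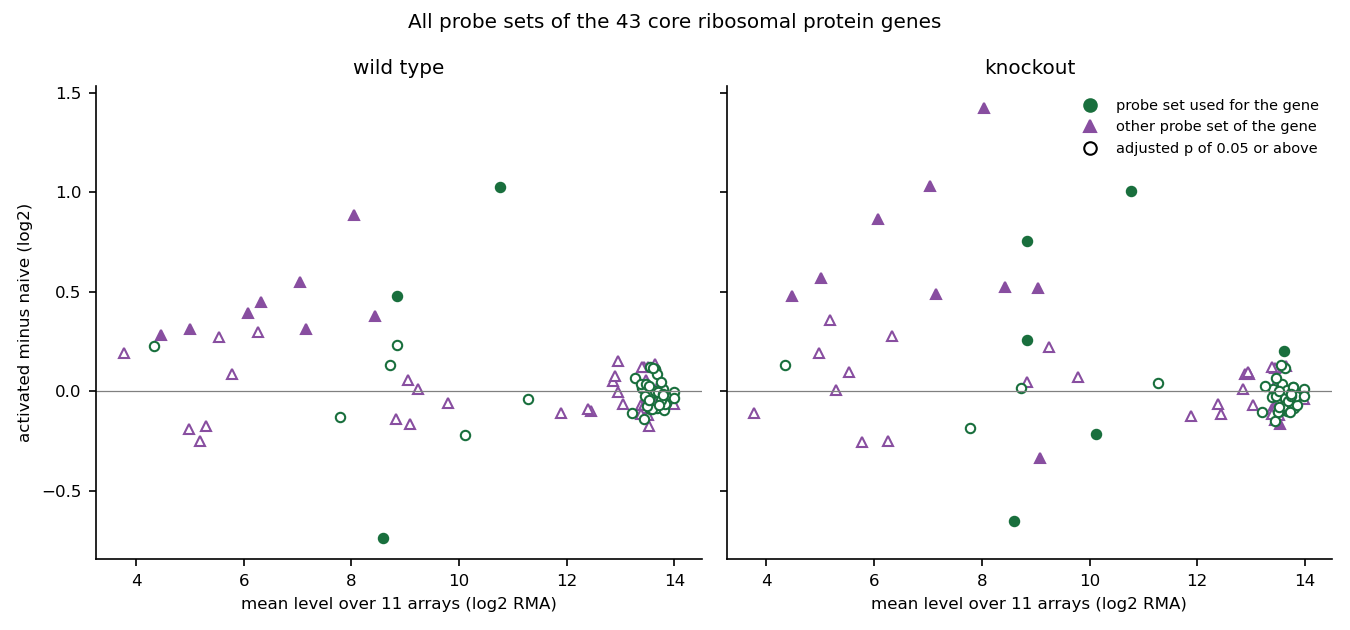
Activated minus naive difference (log2, y axis) against the mean level over 11 arrays (log2 RMA, x axis) for every probe set of the 43 core genes, in wild-type (left) and knockout (right) cells; circles are the probe sets that stand for a gene, triangles its other probe sets, and filled symbols have an adjusted p under 0.05. Probe sets above 13 lie in a narrow band around 0, and the larger differences, mostly upward, belong to dimmer probe sets.

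Most mitochondrial ribosomal proteins and most listed genes that help build ribosomes rose. Over all genes 20.2% rose in wild-type and 20.7% in knockout cells. The 3 lists in this paragraph had mean levels between 9.22 and 10.53 on every array, below the bright core probe sets, so the sizes of the differences are not set against each other. Mitochondrial ribosomal proteins, which serve the organelle's own ribosome, rose in 62 of 76 genes and fell in 1 in wild-type cells, with a median of 0.70, and rose in 66 and fell in 1 in knockout cells, with a median of 0.86. Dedicated chaperones and importers of ribosomal proteins rose in 13 of 15 genes in wild-type and 14 in knockout cells, with medians of 1.08 and 1.21. Examples were Rpf2, which loads the 5S particle (1.68 and 2.41), Grwd1, a chaperone of Rpl3 (1.51 and 1.87), and the importin Ipo5 (1.46 and 1.86). Factors of subunit maturation rose in 21 of 22 genes in both genotypes, with medians of 0.99 and 1.21, led by Nolc1 (1.89 and 2.25), Rrp12 (1.63 and 2.10) and Nop58 (1.61 and 1.82).

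Other mRNAs that carry a TOP tract gave 5 higher and 2 lower of 15 in wild-type cells and 6 higher and 4 lower in knockout cells, with medians of 0.090 and -0.0051. For this and the next lists, the shares over all genes were 20.2% higher and 20.9% lower in wild-type cells. In knockout cells they were 20.7% and 22.4%. The elongation factor Eef1a1 differed by -0.00050 and -0.0051, whereas the histone chaperone Nap1l1 rose by 0.74 and 0.85, Eef1d, an exchange factor for elongation, rose by 0.58 and 0.43, and Btf3, of the nascent chain complex, rose by 0.45 in both genotypes. Eef1a1 was chosen after its values were seen. Genes that control TOP mRNAs gave 8 higher and 1 lower of 14 in wild-type and 9 higher and 1 lower in knockout cells. Among them the cap-binding protein Eif4e rose by 1.47 and 1.51, its repressor Eif4ebp1 by 0.90 and 1.84, and Larp1 by 0.83 and 0.93. Surveillance genes, which sense or remove unassembled ribosomal proteins, gave 4 higher and 2 lower of 7 in wild-type cells and 4 higher and 1 lower in knockout cells. Fau, whose product is cleaved to the ribosomal protein eS30, was the 1 measured ribosomal protein gene of another name, and it differed by -0.16 in wild-type cells (adjusted p = 0.0777, limma) and fell by 0.25 in knockout cells (adjusted p = 0.00509).

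**Figure D4:**
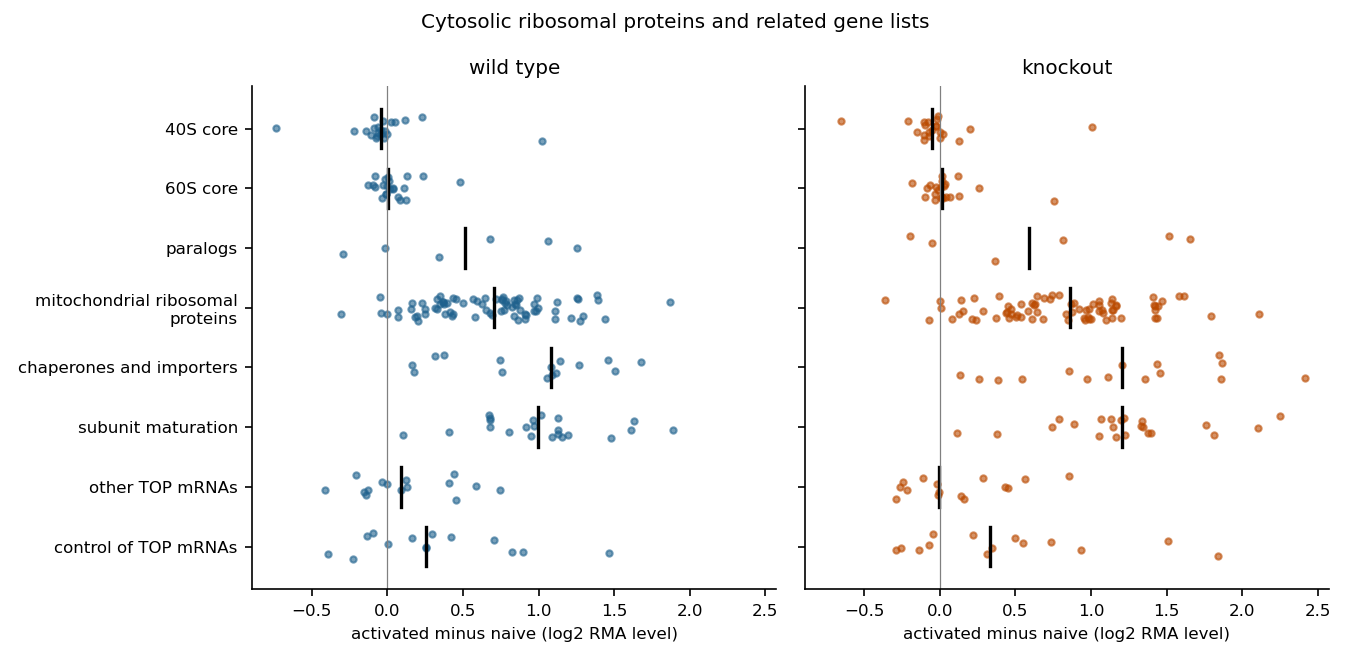
Activated minus naive difference (log2 RMA level, x axis) of each measured gene of 8 lists (rows), in wild-type (left) and knockout (right) cells; points are genes, spread vertically for sight only, and black bars are list medians. The readings of most 40S and 60S core genes gather at 0, with list medians from -0.050 to 0.012. Mitochondrial ribosomal proteins, chaperones and importers, and maturation factors have medians from 0.70 to 1.21. Most core probe sets are brighter than these lists and compression was not tested, so the sizes are not set against each other.

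Markers of other cells moved with activation as well. In wild-type cells 5 of 7 erythroid, 4 of 8 B cell and 6 of 8 macrophage and monocyte markers were lower after activation, and 0 were higher. In knockout cells 2, 4 and 6 were lower. Over all genes 20.9% were lower in wild-type and 22.4% in knockout cells. Of 7 neutrophil markers 2 were lower in each genotype, and of 5 dendritic cell markers 3 were lower in wild-type and 2 in knockout cells. Among 4 NK cell markers 2 were lower and 1 higher in wild-type cells, and 3 were lower and 1 higher in knockout cells. The mean level of the 8 macrophage and monocyte markers was 7.40 to 7.57 in naive and 6.78 to 6.79 in activated wild-type arrays, and 7.51 to 8.02 in naive and 6.65 to 6.95 in activated knockout arrays. Of the T cell markers 5 of 6 were lower in each genotype, and 1 was higher in wild-type cells. The part of these shifts in the ribosomal protein differences was not tested. Without wild-type naive replicate 1, the array with the highest erythroid markers, the wild-type differences were 1.34 for Rpl7l1, 1.18 for Rps27l, 1.00 for Rps25 and -0.76 for Rps27.

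Between knockout and wild-type cells, no ribosomal protein gene passed the threshold in either state, in this fit or in the alternatives run, except with array weights. With those weights Rpl7l1 (-0.24, adjusted p = 0.0409, limma) and Rps4l (-0.43, adjusted p = 0.0269) were lower in naive knockout cells. Without weights, in naive cells 0 of the 50 genes passed, where 0.148% of all genes did, and 2 had an unadjusted p under 0.05 (limma), against 14.5% of all genes. In activated cells 0 passed, where 0.0605% of all genes did, and 1 had an unadjusted p under 0.05, against 6.9% of all genes. The median knockout minus wild-type difference of the core genes was 0.0061 in naive and 0.0059 in activated cells. For the 34 bright core genes the differences ran from -0.032 to 0.052 in naive and from -0.048 to 0.052 in activated cells. Their 95% intervals all lay between -0.16 and 0.18 in naive and between -0.20 and 0.20 in activated cells.

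The paralogs again showed the widest values. In naive cells Rpl7l1 had the smallest p, with a difference of -0.27 ± 0.086 SE (95% interval -0.46 to -0.086, adjusted p = 0.199, limma), and all 3 knockout arrays lay below all 3 wild-type arrays. Rps4l differed by -0.28 ± 0.11 (adjusted p = 0.277), Rps27l by -0.17 ± 0.097 (adjusted p = 0.438), Rpl27a by 0.21 ± 0.12 (adjusted p = 0.464) and Rps19bp1 by -0.15 ± 0.11 (adjusted p = 0.550), each with arrays that overlapped between genotypes. The Rps27l difference was -0.060 without wild-type naive replicate 1, and the Rpl7l1 difference -0.19. In activated cells Rps27l had the smallest p: its 3 knockout arrays lay above both wild-type arrays, by 0.28 ± 0.11 on average (95% interval 0.043 to 0.51, adjusted p = 0.641). Rps4l followed with -0.25 ± 0.12 (adjusted p = 0.748), then Rpl14 with 0.21 ± 0.11 (adjusted p = 0.764), Rpl7l1 with 0.13 ± 0.097 (adjusted p = 0.855) and Rpl37 with 0.16 ± 0.14 (adjusted p = 0.878). Leaving out wild-type activated replicate 1 or 2 moved these to 0.066 or 0.36 for Rpl14, 0.052 or 0.21 for Rpl7l1 and 0.38 or -0.062 for Rpl37, and the Rps4l difference to -0.36 or -0.15.

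**Figure D5:**
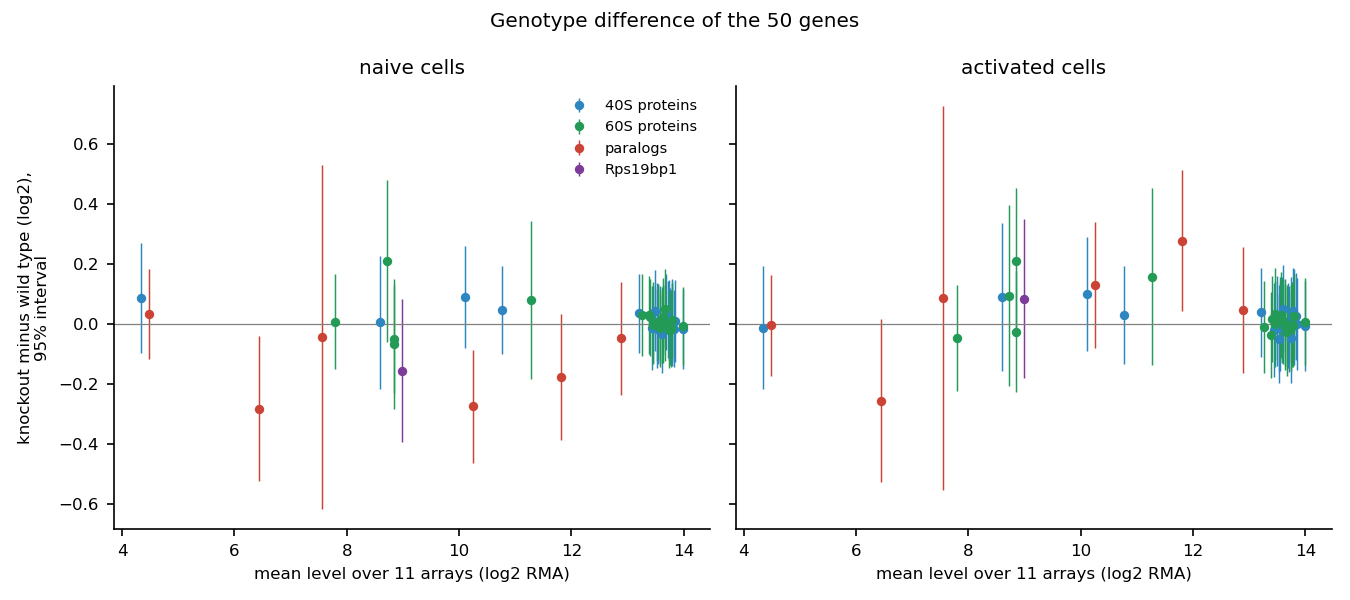
Knockout minus wild-type difference (log2, y axis) with its 95% interval against the mean level over 11 arrays (log2 RMA, x axis) for the 50 genes, in naive (left) and activated (right) cells, coloured by class. The bright core genes lie within 0.052 of 0, and the widest intervals belong to dim probe sets, Rpl39l above all.

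The interaction asks whether activation changed a gene by a different amount in the knockout. It was past the threshold for 0 of the 50 genes and for 0% of all 18194 (limma); 2 of the 50 and 13.8% of all genes had an unadjusted p under 0.05. Those 2 were the paralogs Rpl7l1, whose rise was 0.41 ± 0.13 SE larger in knockout cells (95% interval 0.12 to 0.69, adjusted p = 0.281), and Rps27l, whose rise was 0.45 ± 0.15 larger (0.14 to 0.77, adjusted p = 0.281). Without wild-type naive replicate 1 these became 0.32 and 0.34. Rpl14 came next with 0.28 ± 0.15 (adjusted p = 0.422), followed by Rps19bp1 with 0.24 ± 0.16 (adjusted p = 0.514) and Rps2 with 0.084 ± 0.090 (adjusted p = 0.683). Without wild-type activated replicate 1 or 2 the Rpl14 value was 0.13 or 0.42 and the Rps19bp1 value 0.039 or 0.44. For the bright core genes the differences of the 2 responses ran from -0.078 to 0.084, with 95% intervals inside -0.28 to 0.28.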

How the data were processed

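Per the labels, total RNA was labelled with biotin and hybridised to 1-colour Affymetrix mouse arrays; per the submitters' processing notes, GCOS, RMA and Partek (versions not given in the sources used here) made the values. The deposited ones, log2 levels from 2.32 to 15.03 for 45101 probe sets on 11 arrays, were not transformed further. The labels call arrays biological replicates and name no animals, so p-values measure the spread between these samples. Symbols came from the platform annotation: 34958 probe sets had 1 symbol, 932 several and 9211 none. Differences were fitted with limma 3.58.1 in R 4.3.3 as 4 group means over all 11 arrays with moderated variances, and p-values were adjusted by Benjamini-Hochberg over 18194 genes, with a threshold of 0.05. Further probe sets were tested over the 34958. Intervals are the fit's 95% intervals. The script was tested on simulated data. Figures used Python 3.11.15 and matplotlib 3.10.9. The members and lists were chosen with earlier results of these data known. Named were Crbn, up to 8 rises and 8 falls of a comparison (with 0 past the threshold, the 5 of smallest p), P stalk, 5S particle, Rps6, Rpl22, Rps27, the paralogs, Rps19bp1 and up to 3 genes of other lists; others are marked. The number of arrays limits the precision.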

Additional observations from a re-analysis of the deposited data

How the results depend on the processing

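The calls of Rps25, Rpl7l1, Rps27l, Rps27 and Rps19bp1 held in both activation comparisons in all 23 alternatives, and 0 differences changed sign among called genes. Other calls and counts moved with the settings. In wild-type activation the count of genes that rose was 12 with arrays centred on the median, and the count that fell was 4 with a variance trend, 8 without moderation, 1 with only the compared arrays, 4 after quantile normalization, 1 with centring on the median, and 1 with the replicate number as a block over all arrays or within genotype; without single arrays it was 1 to 2. In knockout activation the count that fell was 5 among genes above the median level, 8 with a variance trend, 13 without moderation, 5 with array weights, 4 after quantile normalization, 1 with centring on the median, 4 with centring on the brightest 10% of other genes, and 1 with a replicate block within genotype; without single arrays it was 1 to 3. The splits of higher against lower were 7 to 4 and 10 to 4 after quantile normalization, 12 to 1 and 11 to 1 with centring on the median, and 6 to 3 and 9 to 4 with bright-gene centring. The wild-type median became 0.0180 with the mean of all probe sets, 0.0134 without probe sets ending in _x_at or _s_at, 0.0238 after quantile normalization, 0.0703 with median centring and -0.0184 with bright-gene centring, and -0.0221 to 0.0086 without single arrays. The knockout median became 0.0169, 0.0148 (quantile), 0.0789 (median centring) and -0.0397 (bright-gene centring), and -0.0174 to 0.0017 without single arrays. Array weights gave 2 genes past the threshold in the naive genotype comparison (Rpl7l1, adjusted p = 0.0409, and Rps4l, 0.0269). Centring on the median moved the genotype medians to 0.0289 (naive) and 0.0393 (activated), and bright-gene centring moved the naive one to 0.0276 and the interaction one to -0.0162. The cause of these shifts was not tested. Pairing of the samples by replicate number was not settled, and the main fit took them as unpaired. Correlations of same-numbered deviations, in order of number, were 0.391, 0.016 and 0.314 between naive wild-type and knockout samples. They were 0.27, 0.087 and 0.216 between naive and activated knockout samples. Between naive and activated wild-type samples they were -0.299 and -0.178, and between activated wild-type and knockout samples 0.013 and 0.103. With the number as a block, the naive genotype calls over all 18194 genes went from 0.148% (14 higher and 13 lower in the knockout) to 1.52% (73 and 204), with 0 of the 50 genes past the threshold. Where leaving out an array left 1 wild-type activated sample, that sample was taken to vary like the other groups.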
